A study of Mus musculus with 14 samples.

Results

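The proteins of the cytosolic ribosome are encoded by a large family of genes, and their transcripts were measured here in germinal centre (GC) B cells by counting unique molecular identifiers (UMIs), the tags that mark single captured mRNA molecules. Members were chosen by symbol: every gene whose symbol starts with Rpl or Rps followed by a number, together with Rpsa, Rplp0, Rplp1 and Rplp2, and without Rps6k kinases and annotated -ps pseudogenes. This gave 80 of the 9969 genes in the UMI table. Of these, 78 had counts high enough to be tested, among 7999 tested genes. Rpl21 (64 UMIs over all libraries) and Rps15a (66 UMIs) did not pass that filter. The 80 members comprised 40 proteins of the large subunit, 30 of the small subunit, the 3 P stalk proteins, 6 paralogues or like genes (Rpl22l1, Rpl7l1, Rpl36al, Rps27l, Rps4l and Rpl37rt) and Rps19bp1, which meets the naming rule but encodes a protein that binds RPS19 and is not part of the ribosome. Rps27 was not analysed here.

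The cells came from C57BL/6 chimeric mice in which 50% of the cells were wild type (WT) and 50% carried SykY317F, a variant of the antigen receptor kinase Syk in which a tyrosine is replaced by phenylalanine. All mice had been immunized with NP-KLH, a hapten-carrier conjugate, 14 days before their popliteal lymph nodes were taken, so both genotypes shared host and immunization. GC B cells of the dark zone (DZ) and the light zone (LZ) were sorted and gave 4 WT DZ libraries (replicates 2, 3, 4 and 5), 4 WT LZ libraries (replicates 1, 2, 3 and 5), 3 SykY317F DZ libraries and 3 SykY317F LZ libraries (replicates 1, 2 and 4 in both). Whether same-group libraries stem from different mice or from pools is not stated in the labels, so p-values measure only the spread between these libraries.

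A ribosome is built from a small subunit, which reads the mRNA, and a large subunit, which joins the amino acids. The proteins of both are needed in near-equal numbers, and their mRNAs commonly begin with a run of pyrimidines, the 5′ terminal oligopyrimidine (TOP) tract, through which mTOR signalling controls their translation. In the GC, B cells divide fast in the DZ and are selected by T cell help in the LZ, where Myc and mTOR activity are known to rise in selected cells and to raise ribosome production. MARS-seq reads transcript ends, so a UMI counts a molecule and no division by transcript length was made. Levels are given as CPM, the usual count scaled to a common library total, here with the total adjusted by TMM, a scaling that sets aside the most divergent genes.

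The annotated starts of several members carry the pyrimidine run for which this gene family is known. RefSeq promoter sequences (GRCm38.p6, 250 bases before to 50 after each start) were found for 60 of the 80 members. The runs below were chosen because the values of these genes are described further on. Each window spans 15 bases before the start and 15 from it onward, 5′ to 3′, and capitals mark the longest run of C and T that holds the start base or begins within 10 bases of it. The first 5 have a run of at least 8 bases and the last 3 a shorter one.
Rplp2 (chr7:141447636-141447665, plus strand): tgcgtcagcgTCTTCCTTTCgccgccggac
Rpl15 (chr14:18270972-18271001, minus strand): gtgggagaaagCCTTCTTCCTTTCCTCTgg
Rpl38 (chr11:114668565-114668594, plus strand): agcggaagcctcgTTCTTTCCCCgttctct
Rps6 (chr4:86857353-86857382, minus strand): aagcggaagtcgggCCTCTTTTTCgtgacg
Rps24 (chr14:24490663-24490692, plus strand, the first of 2 annotated starts): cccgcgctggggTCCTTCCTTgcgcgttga
Rpl24 (chr16:55966260-55966289, plus strand): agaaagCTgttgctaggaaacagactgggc
Rps25 (chr9:44407699-44407728, plus strand): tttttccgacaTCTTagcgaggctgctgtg
Rpl36a (chrX:134585639-134585668, plus strand): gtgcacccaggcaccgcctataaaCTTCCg

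A run of at least 8 pyrimidines was found in 21 of the 60 members (35.0%), against 11.1% of the 27025 genes with a RefSeq start and 11.4% of the tested genes. The letters CCGGAAG, the core bound by ETS factors, searched on both strands of the whole 300-base window, were found in 38.3% of members and in 9.93% of all genes. YY1's core, GCCATNTTG, was found in 5.0% of members and 2.90% of all genes, and TATAAA in 11.7% and 15.7%. Among tested genes the same letters were found in 24.6%, 6.31% and 7.56%. These matches describe the letters and are not evidence of binding. The starts used in these cells were not measured, so a short run at an annotated start does not show that a member lacks the TOP tract.

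The cell label and the depth bear on all values below. Of 12 GC B cell markers, 11 were in the table and all 11 were detected. Libraries held between 149641 and 1767898 UMIs. UMI yield per 100 reads was 9.37 to 15.8 in SykY317F LZ, 15.6 in SykY317F DZ replicate 4 and 33.5 to 53.2 in the other 10 libraries. Within each library the members had a UMI yield near that of all other genes, for example 9.97 against 9.34 in SykY317F LZ replicate 2. The widest gap was 45.0 against 38.3 in WT LZ replicate 3. Single members differed in yield and in how far it fell between groups. In WT LZ and SykY317F LZ it was 33.5 and 7.99 for Rpl4, 72.8 and 37.1 for Rps6, and 69.1 and 48.2 for Rpl37rt. WT DZ replicate 5 stood apart: of 3349 genes with a mean of at least 50 CPM, 36 (1.07%) were at least 8-fold lower there than the mean log2 CPM of the other 3 WT DZ libraries, and 7 of the 75 members above that level were among them. WT DZ replicates 3 and 4 were the closest pair, with a chi-square per degree of freedom of 1.95, but differed by more than counting error and were counted as 2 libraries.

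A large part of all captured mRNA molecules came from these genes, between 19.2% and 30.6% of a library's UMIs. Their share of UMIs was 21.8%, 22.7%, 21.8% and 21.3% in WT DZ replicates 2, 3, 4 and 5. In WT LZ it was 22.6%, 27.8%, 19.8% and 20.8% in replicates 1, 2, 3 and 5. The WT DZ libraries thus lay within a narrow band and WT LZ replicate 2 lay above all other WT libraries. In SykY317F DZ replicates 1, 2 and 4 the share was 19.2%, 24.4% and 25.2%, and in SykY317F LZ it was 26.1%, 30.6% and 20.4%. SykY317F LZ had both the highest mean, 25.7% ± 5.09 (SD, n = 3), and the widest spread, and its replicate 4 lay below all WT DZ libraries and within the ranges of WT LZ and SykY317F DZ. The Clopper-Pearson 95% interval of a share was narrow in all libraries, for example 30.4% to 30.8% in SykY317F LZ replicate 2. It covers counting error only, which was far below the spread between libraries. The 70 mitochondrial ribosomal protein genes, measured the same way, held 0.517% to 0.793% of UMIs, with the lowest values in SykY317F LZ (0.517% to 0.585%). Annotated -ps pseudogenes of the family, left out of the members, held 0.0302% to 0.218%. Their share was 0.112% to 0.218% in SykY317F LZ, 0.156% in SykY317F DZ replicate 4 and 0.101% in WT LZ replicate 3. The ratio of large subunit and stalk UMIs to small subunit UMIs had a mean for WT of 1.10 ± 0.10 (DZ) and 1.12 ± 0.069 (LZ; SD, n = 4 and 4). For SykY317F the mean was 1.16 ± 0.12 (DZ) and 1.21 ± 0.050 (LZ; SD, n = 3 and 3), and the groups overlapped. In bulk samples, fewer cells of a type and less RNA per cell cannot be told apart.

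**Figure D1:**
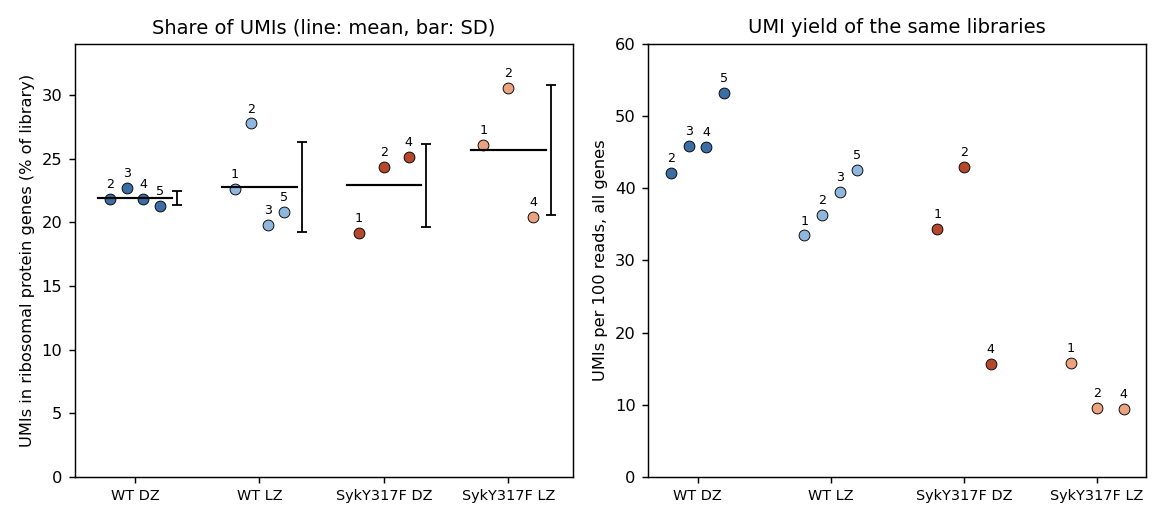
Left, share of a library's UMIs that came from the 80 ribosomal protein genes (percent), by group, with the replicate number above each point, the mean as a line and the SD as a bar. Right, UMIs per 100 reads of the same libraries. The shares of the 4 groups overlap, and the 3 SykY317F LZ libraries and SykY317F DZ replicate 4 have the lowest yields, 9.37 to 15.8.

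Levels of single members spread widely around that share. The P stalk is the flexible arm of the large subunit that recruits elongation factors. Rplp1 had the highest level of all members (mean of 8989 CPM over 14 libraries), and Rplp0, the protein that anchors the stalk, had a mean of 5849.5 CPM. In the large subunit the highest mean was that of Rpl13a (8885 CPM), and in the small subunit that of Rps19 (8327 CPM), a protein mutated in Diamond-Blackfan anaemia. Among core subunit genes the lowest means were those of Rpl21 (3.95 CPM), Rps15a (5.65 CPM), Rpl15 (14.9 CPM), Rpl5 (33.4 CPM) and Rpl22 (74.0 CPM), and the pseudogene Rps4l (10.7 CPM) and Rps19bp1 (68.9 CPM) were also low. Members are hard to count apart from their processed copies: a median of 43.5% of the 50-base stretches of a member's transcript were also found in transcripts of other genes, with a range of 0 to 93.3%, and 31 members were above 50%. In addition, 20 members overlap another coding gene. How the authors' counting treated such reads is not given in the sources used here, so the level of a single member is uncertain.

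The P stalk genes overlapped between all groups. Rplp0 (chromosome 5, 115559467 to 115563727, GRCm38) was at 4981, 5115, 4621 and 8548 CPM in WT DZ replicates 2, 3, 4 and 5, and at 6169, 5724, 6073 and 4488 CPM in WT LZ replicates 1, 2, 3 and 5. In SykY317F DZ replicates 1, 2 and 4 it was at 5817, 4813 and 7632 CPM, and in SykY317F LZ at 5934, 6289 and 5689 CPM. All 4 groups overlapped, with WT DZ replicate 5 highest. The fitted log2 fold changes of Rplp0, Rplp1 and Rplp2 lay between -0.13 and 0.47 in the zone and genotype comparisons, and none passed the test. Rps2, Rpl3, Rplp0 and Rpl4 varied least of all tested members, with an SD of log2 CPM over the 14 libraries of 0.22, 0.26, 0.26 and 0.27.

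The first comparison asked what separates the zones in WT cells. No tested member passed an adjusted p under 0.05 in edgeR's quasi-likelihood test, against 15 of 7999 genes (0.188%). The median log2 fold change of the 78 members, LZ against DZ, was -0.01, beside -0.02 for all tested genes, and 38 members lay above 0 (all genes, 48.3%). At an unadjusted p under 0.05, 2 members were higher (background 4.59%) and 1 was lower (3.89%), and DESeq2's Wald test called 0 members (background 1.44%). The smallest p belonged to Rps27l, a paralogue of Rps27 that is a known p53 target. It was at 150.2, 169, 141 and 183 CPM in the WT DZ libraries and at 131, 71.2, 72.9 and 106 CPM in the WT LZ libraries. All 4 LZ libraries lay below all 4 DZ libraries, the only tested member for which the groups did not overlap (background 2.88% lower and 2.89% higher). Its log2 fold change was -0.75 ± 0.27 (SE), which did not pass the test (adjusted p = 0.357). Rps9, a small subunit protein, was 0.61 ± 0.27 higher in LZ on the log2 scale (adjusted p = 0.552), and Rpl41, one of the shortest proteins known, was 0.66 ± 0.32 higher (adjusted p = 0.587). Neither passed. Without WT DZ replicate 5 the members' median was 0.12, beside 0.03 for all genes, with 53 members above 0. Markers of other cells shifted between the WT zones, with overlapping ranges. Naive and memory B cell markers (6 of 7 in the table) summed to 512 to 946 CPM in DZ and 846 to 1725 CPM in LZ. T cell markers (6 of 7) summed to 19.4 to 58.7 CPM and 55.7 to 173 CPM, macrophage markers (7 of 7) to 75.1 to 356 CPM and 38.4 to 145 CPM. Their part in the result was not tested.

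In SykY317F cells most members had a higher fitted level in LZ than in DZ. The median log2 fold change was 0.35, beside -0.04 for all tested genes, and 66 of 78 members lay above 0 (all genes, 46.7%). Above 0 were 35 of 39 large subunit members and 24 of 29 small subunit members (medians of 0.39 and 0.31), while the P stalk had a median of 0.20. No member passed the adjusted threshold in edgeR (background 0.0375%, with 0.0125% higher and 0.025% lower), and DESeq2 called 0 (background 0.594%). At an unadjusted p under 0.05, 11 members were higher (background 4.04%) and 2 were lower (6.23%), which is 13 in either direction (10.3%). Groups did not overlap for 8 members on the higher side (background 6.56%) and for 2 on the lower side (8.5%).

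Rpl24, a late-joining large subunit protein (chromosome 16, 55966275 to 55971435), showed that pattern. It was at 505, 754 and 915 CPM in SykY317F DZ replicates 1, 2 and 4, and at 1167, 2410.4 and 1041 CPM in SykY317F LZ. All LZ libraries lay above all DZ libraries, with replicate 2 the highest. The log2 fold change was 1.09 ± 0.35 (SE), with an adjusted p of 0.297 in edgeR, and it was 0.57 without SykY317F LZ replicate 2. Rpl36a (chromosome X, 134585654 to 134588062), a large subunit protein near the exit site for tRNA, was at 403, 889.9 and 517 CPM in DZ and at 1012, 2252 and 1399 CPM in LZ, a log2 fold change of 1.36 ± 0.43 (adjusted p = 0.312). Here too the groups did not overlap. The value was 0.75 without the 2 libraries of fewest UMIs, which leaves SykY317F LZ replicate 1 alone in its group. Rps6, the subunit protein phosphorylated by S6 kinase, had a log2 fold change of 0.84 ± 0.29 (adjusted p = 0.342; 0.50 with read counts and 1.26 without SykY317F DZ replicate 4), and its groups overlapped, since SykY317F DZ replicate 4 (1172 CPM) was above SykY317F LZ replicate 4 (1054 CPM).

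On the lower side stood a pair of weakly counted large subunit genes. Rpl15 (chromosome 14, 18267823 to 18271391) was at 18.9, 19.5 and 16.6 CPM in SykY317F DZ and had 0 UMIs in all 3 SykY317F LZ libraries, which also had 0 reads of it. A count of 0 allows up to 3 UMIs over the group. Set against 61 UMIs in SykY317F DZ, the pooled counts give a bound of at least 4.23-fold lower in SykY317F LZ. This bound covers counting error only and not the spread between libraries. The adjusted p was 0.0653, short of the threshold, and with scaling by library size only it was 0.0455 (background 0.113%). With Rpl15 set at this bound the members' median stays at 0.35, since it lies below the median in either case. Rpl5, which with Rpl11 and 5S rRNA binds Mdm2 when ribosome assembly fails, was counted at 110, 39 and 30 UMIs across the SykY317F DZ replicates, against 1, 3 and 3 UMIs in LZ. Its log2 fold change was -2.46 ± 0.85 (adjusted p = 0.343), with -1.20 in the fit of read counts. It was -4.32 without the 2 libraries of fewest UMIs, which leaves SykY317F LZ replicate 1 alone in its group.

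The SykY317F zone difference rested partly on single libraries. Without SykY317F LZ replicate 2 the members' median was 0.12 with 51 members above 0, without SykY317F DZ replicate 1 it was 0.21, and without SykY317F LZ replicate 4 it was 0.57. Markers of other cells also differed between these groups, and those of naive and memory B cells had shifted the same way between the WT zones. The summed level of the naive and memory B cell markers (6 of 7 in the table, none at 0 in a whole group) was 1078 to 1562 CPM in SykY317F DZ and 1860 to 1926 CPM in SykY317F LZ, that of the macrophage markers (7 of 7, none at 0 in a whole group) 240.3 to 514 CPM and 32.8 to 90.3 CPM. T cell markers (6 of 7, none at 0 in a whole group) summed to 90.7 to 218 CPM and 47.8 to 158 CPM, plasma cell markers (4 of 5, Sdc1 at 0 in SykY317F LZ) to 441 to 910.1 CPM and 310.4 to 715 CPM. Of the stromal markers 1 of 5, and of the erythroid markers 0 of 4, could be read. Their part in the result was not tested. The low UMI yield of all 3 SykY317F LZ libraries and the group cannot be told apart. In SykY317F DZ replicates 1, 2 and 4 the yield was 34.3, 43.0 and 15.6 UMIs per 100 reads, with member shares of 19.2%, 24.4% and 25.2%. In SykY317F LZ replicates 1, 2 and 4 it was 15.8, 9.52 and 9.37, with shares of 26.1%, 30.6% and 20.4%. The relation of yield to share was not tested.

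**Figure D2:**
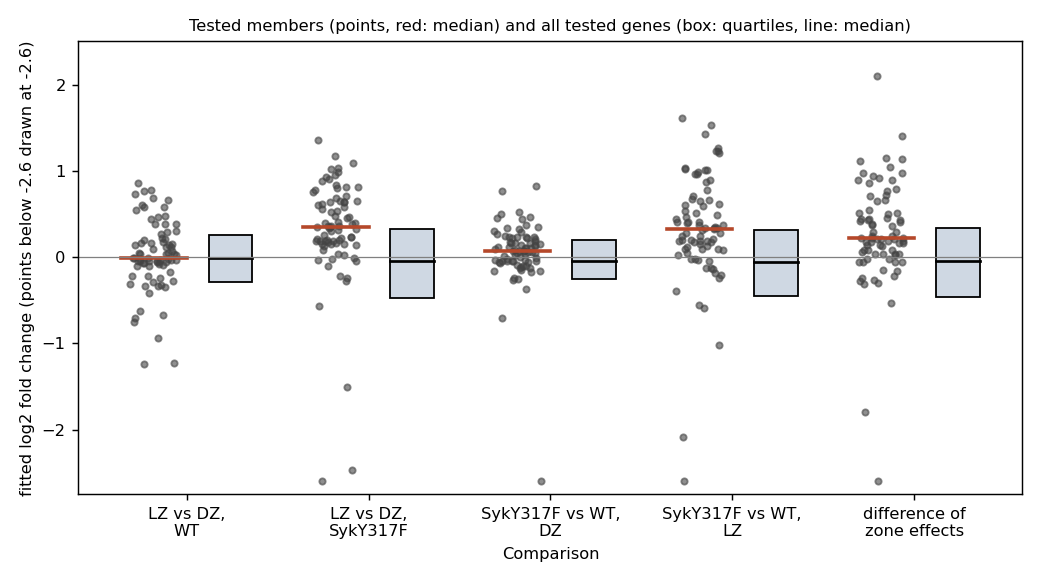
Fitted log2 fold change of the 78 tested ribosomal protein genes (points, red line at their median) and of all 7999 tested genes (box at the quartiles, line at the median) in the 5 comparisons, with the few lowest points drawn at the lower edge. The members' median is -0.01 for the WT zones and 0.07 for genotypes in DZ, and 0.35, 0.33 and 0.22 in the comparisons that hold SykY317F LZ.

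Between genotypes in DZ the members' median was close to that of all genes. The median log2 fold change, SykY317F against WT, was 0.07, beside -0.04 for all genes, and 50 of 78 lay above 0 (all genes, 45%). No member and no other gene passed in edgeR (background 0%), and DESeq2's Wald test called 0 members (background 0.025%). At an unadjusted p under 0.05, 0 members were higher (background 2.83%) and 1 was lower (0.988%), against 3.81% of genes in either direction. That gene was Rps4l, annotated as a transcribed processed pseudogene related to Rps4x (chromosome 6, 148354656 to 148355598, overlapping Tmtc1). It was at 9.06, 23.9, 8.90 and 52.1 CPM in WT DZ and at 0, 2.69 and 0 CPM in SykY317F DZ, or 132 UMIs against 4. The groups did not overlap (background 2.31% lower and 3.56% higher), and the log2 fold change of -4.19 ± 0.95 did not pass (adjusted p = 0.628). Without SykY317F DZ replicate 2 no UMI is left in that group and the fitted value, -7.42, is no measure of size. In LZ it had 60 UMIs in WT and 2 in SykY317F, and its groups overlapped. Without SykY317F DZ replicate 4 the members' median in DZ was -0.07, and without SykY317F DZ replicate 1 it was 0.22, so its sign depended on single libraries. Markers of other cells differed between these groups as well: the T cell markers summed to 19.4 to 58.7 CPM in WT DZ and 90.7 to 218 CPM in SykY317F DZ, and the naive and memory B cell markers to 512 to 946 CPM and 1078 to 1562 CPM. Their part in the result was not tested.

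Between genotypes in LZ most members had a higher fitted level in SykY317F. The median log2 fold change was 0.33, beside -0.06 for all tested genes, and 62 of 78 members lay above 0 (all genes, 46%). No gene passed in edgeR (background 0%). At an unadjusted p under 0.05, 20 members were higher (background 3.64%) and 1 was lower (6.18%), which is 21 in either direction (9.81%). Groups did not overlap for 12 members on the higher side (background 3.84%), among them Rpl6, Rpl7, Rpl23, Rpl36a, Rpl36al, Rpl37rt, Rpl38, Rps3, Rps4x, Rps6 and Rps25, and for Rpl15 on the lower side (6.66%). This comparison shares the SykY317F LZ libraries with the SykY317F zone comparison, so the values of both are not independent.

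Rpl36al, a close paralogue of Rpl36a (chromosome 12, 69182731 to 69184083), had the smallest p on the higher side. It was at 137, 209, 389.6 and 197 CPM in WT LZ and at 645, 790.3 and 420.2 CPM in SykY317F LZ. The lowest SykY317F library lay just above the highest WT library. The log2 fold change was 1.42 ± 0.31 (SE) with an adjusted p of 0.111 in edgeR. With WT LZ replicate 3, its highest WT LZ library, left out, it passed in edgeR (log2 fold change 1.77, adjusted p = 0.0325, background 0.0373%).

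Rpl23 (chromosome 11, 97777527 to 97782437) is a large subunit protein that, like Rpl5 and Rpl11, can bind Mdm2. It was at 1505, 1674, 1647 and 2179.5 CPM in WT LZ and at 4009, 5504 and 2641 CPM in SykY317F LZ. SykY317F LZ replicate 4 was the lowest of its group and still above WT LZ replicate 5. The log2 fold change was 1.21 ± 0.27 (adjusted p = 0.120). Rpl38, whose loss in mice disturbs translation of Hox mRNAs, was at 1481, 1322, 1261 and 1090.0 CPM in WT LZ and at 2456, 3720.1 and 1631 CPM in SykY317F LZ, a log2 fold change of 1.01 ± 0.27 (adjusted p = 0.183). Rpl36a reached 1.62 ± 0.40 (adjusted p = 0.154) and the pseudogene Rpl37rt 1.23 ± 0.29 (adjusted p = 0.123). In the fit of read counts Rpl37rt was at 0.10 (adjusted p = 0.917). The UMI yield of Rpl37rt per 100 reads was 69.1 in WT LZ and 48.2 in SykY317F LZ, above that of the whole libraries in both. Whether the yield bears on the gap between UMI and read values was not tested. Rpl36a was at 0.999 without the 2 libraries of fewest UMIs, which leaves SykY317F LZ replicate 1 alone in its group. Rpl38 was at 0.64 without SykY317F LZ replicate 2. In all of these genes SykY317F LZ replicate 2 was the highest library. Rpl15 had 63 UMIs in WT LZ and 0 in SykY317F LZ, a bound of at least 3.38-fold lower that covers counting error only. It did not pass in edgeR (adjusted p = 0.111).

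Among small subunit members in LZ, Rps3 and Rps4x had wider errors than Rpl36a. Rps3, which lines the entry of the mRNA channel (chromosome 7, 99477896 to 99483738), was at 449, 563, 933 and 538 CPM in WT LZ and at 2277, 1970.1 and 1116 CPM in SykY317F LZ, with no overlap. Its log2 fold change was 1.53 ± 0.48 (adjusted p = 0.304), and in DZ, where WT replicate 5 alone reached 1625 CPM, it was 0.83 ± 0.47, with 1.51 without that library and 0.33 without SykY317F DZ replicate 4. Rps4x, encoded on the X chromosome, was at 314, 913, 668 and 652 CPM in WT LZ and at 1263, 1682 and 1537 CPM in SykY317F LZ, a log2 fold change of 1.23 ± 0.78 (adjusted p = 0.655). Its groups did not overlap and its error was among the largest here, with a value of 25.8 CPM in WT DZ replicate 5. Rps23 and Rps20 had log2 fold changes of 1.27 ± 0.36 and 0.96 ± 0.29 (adjusted p = 0.252 and 0.264), with overlapping groups. With read counts the LZ values of Rps3, Rps4x and Rps23 were 0.95, 0.78 and 0.55.

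Rpsa, also known as the laminin receptor precursor, had log2 fold changes from -0.04 to 0.19 in the zone and genotype comparisons, Rpl11 from 0.10 to 0.34 and Rps19 from -0.05 to 0.23. Rpl22, whose loss in mice blocks T cell development, was at 45.3, 58.9, 53.4 and 69.1 CPM in WT DZ and at 68.0, 104, 80.6 and 64.1 CPM in WT LZ. The log2 fold change was 0.47 ± 0.23 (adjusted p = 0.604), and between the SykY317F zones, where the groups did not overlap, it was 0.64 ± 0.29 (adjusted p = 0.472). With read counts the WT value was 0.25, and without WT LZ replicate 2 it was 0.31. Its paralogue Rpl22l1 had log2 fold changes of -1.24 ± 1.07 and -0.57 ± 1.43, errors about as large as the values or larger, and the second turned to 1.39 without SykY317F DZ replicate 2. Rpl10, which completes the large subunit, had 0.85 ± 0.48 between the WT zones and 1.03 ± 0.57 between the SykY317F zones (adjusted p = 0.666 and 0.584). Its SykY317F groups did not overlap, with at most 821 CPM in DZ and at least 935 CPM in LZ, and its value there was 0.43 with read counts and 0.61 without SykY317F DZ replicate 1.

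**Figure D3:**
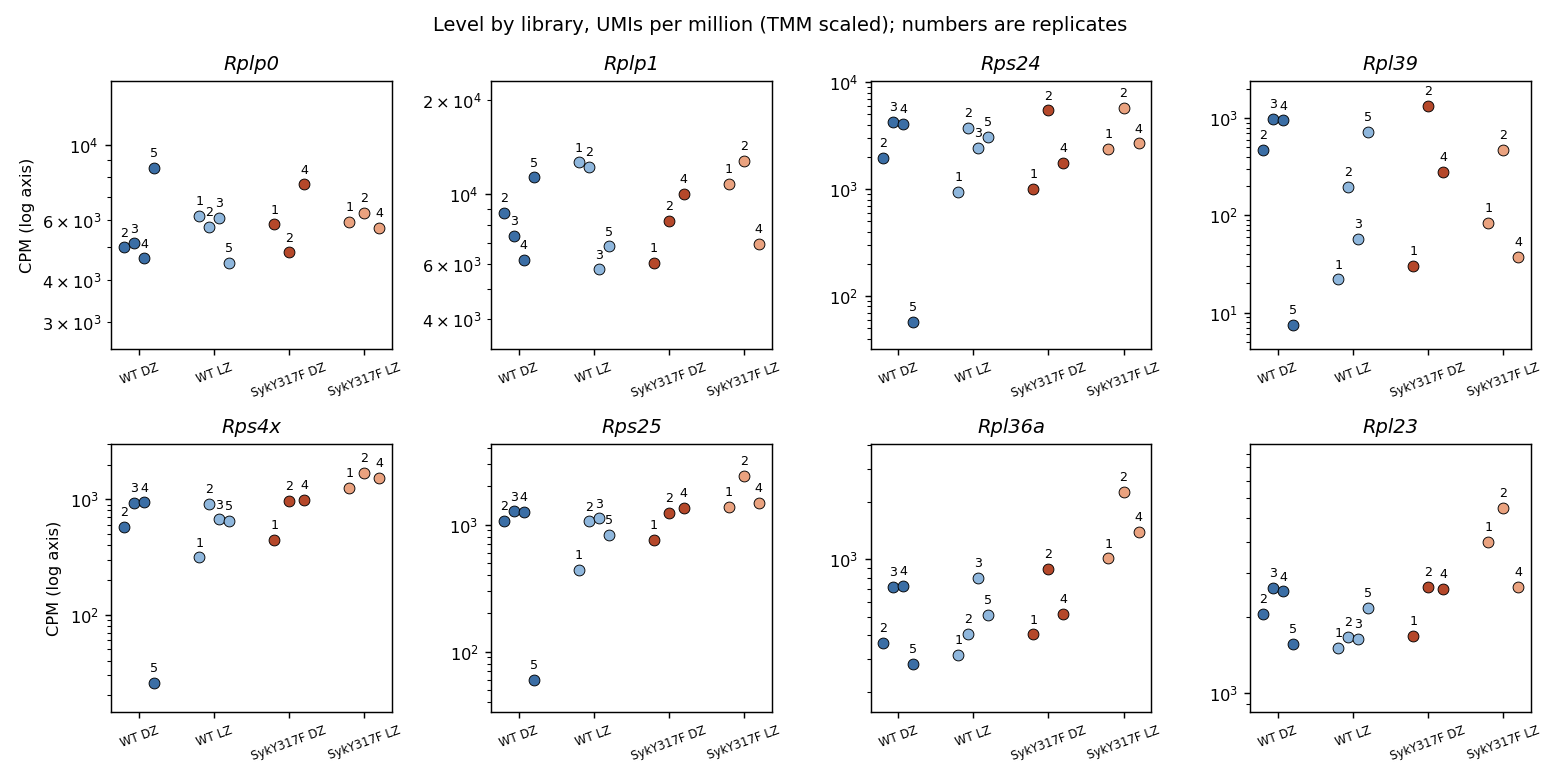
Level of 8 members in each library (CPM, log axis, 1 point per library with its replicate number), by group. The groups overlap for Rplp0 and Rplp1, Rps24, Rpl39, Rps4x and Rps25 have their lowest value in WT DZ replicate 5, and Rpl36a and Rpl23 lie higher in all 3 SykY317F LZ libraries than in the 4 WT LZ libraries.

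Which members counted as changed in LZ depended on the test. DESeq2's Wald test called 7 members, all higher in SykY317F LZ (Rpl23, Rpl36a, Rpl36al, Rpl37rt, Rpl38, Rps20 and Rps23; background 1.01% of the genes it gave an adjusted p). The authors' deposited table called 5 members in this comparison (Rpl23, Rpl36a, Rpl36al, Rpl37rt and Rpl38; background 0.251%), and Rps4l between genotypes in DZ (background 0.181%). In the authors' deposited table, 0 members were called between zones in WT (background 0.782%) or in SykY317F (0.221%). In the fit of read counts Rpl15 passed in both comparisons that hold SykY317F LZ (background 0.211% between zones and 0.569% between genotypes), and Rpl36a passed between genotypes. The members' median in LZ was 0.08 without SykY317F LZ replicate 2 and 0.52 without SykY317F LZ replicate 4, with 0 calls in either fit. The summed level of naive and memory B cell markers was 846 to 1725 CPM in WT LZ and 1860 to 1926 CPM in SykY317F LZ, and its part in the result was not tested.

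The difference between both zone effects was tested directly. No member passed in edgeR (background 0%), and DESeq2 called 0 (background 0%). The median of the difference, SykY317F minus WT, was 0.22 on the log2 scale, beside -0.05 for all genes, and 61 of 78 members lay above 0 (all genes, 46.3%). Rpl23 differed by 1.14 ± 0.39 (SE), with an adjusted p of 0.991. At an unadjusted p under 0.05, 9 members were above 0 (background 1.63%) and 1 below (3.18%), which is 10 in either direction (4.8%). So the zone effect on members was not shown to differ between genotypes, and without 1 library, SykY317F LZ replicate 2, the median of the difference was -0.01.

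A handful of members swung far more than their family. Rpl39, a tiny protein lining the exit tunnel (chromosome X, 37082520 to 37085402), was at 475, 972, 946 and 7.54 CPM in WT DZ replicates 2, 3, 4 and 5 and at 21.9, 196, 57.6 and 727 CPM in WT LZ replicates 1, 2, 3 and 5. In SykY317F DZ replicates 1, 2 and 4 it was at 30.5, 1337 and 282 CPM, and in SykY317F LZ at 83.6, 474 and 37.6 CPM. High and low libraries occurred in all groups, and the SD of log2 CPM over the 14 libraries was 2.31, the largest of the 78 tested members. Rps24 (chromosome 14, 24487125 to 24496959), a small subunit protein also mutated in Diamond-Blackfan anaemia, was at 1971, 4236, 4090.0 and 57.1 CPM in WT DZ. In all other libraries it lay between 940.2 and 5701 CPM.

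The drop in WT DZ replicate 5 was shared by 7 members. Among them, against the mean log2 CPM of the other WT DZ libraries, Rpl39 was 78.4-fold lower, Rps24 54.7-fold, Rps4x 28.6-fold, Rps25 19.1-fold, Rpl22l1 17.9-fold and Rps27a 15.7-fold. Most other members were not low in that library, for example Rplp1 (11317 CPM) and Rplp0 (8548 CPM), both at their highest WT DZ value there. Genes outside the family were low there too, among them the proteasome subunit Psma2 (44.5-fold), the respiratory chain subunit Cox7b (28.1-fold) and B2m, the light chain of MHC class I (16.6-fold). Read counts showed it as well, with 15 reads of Rpl39 in WT DZ replicate 5 and 736 to 2418 in the other WT DZ libraries.

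**Figure D4:**
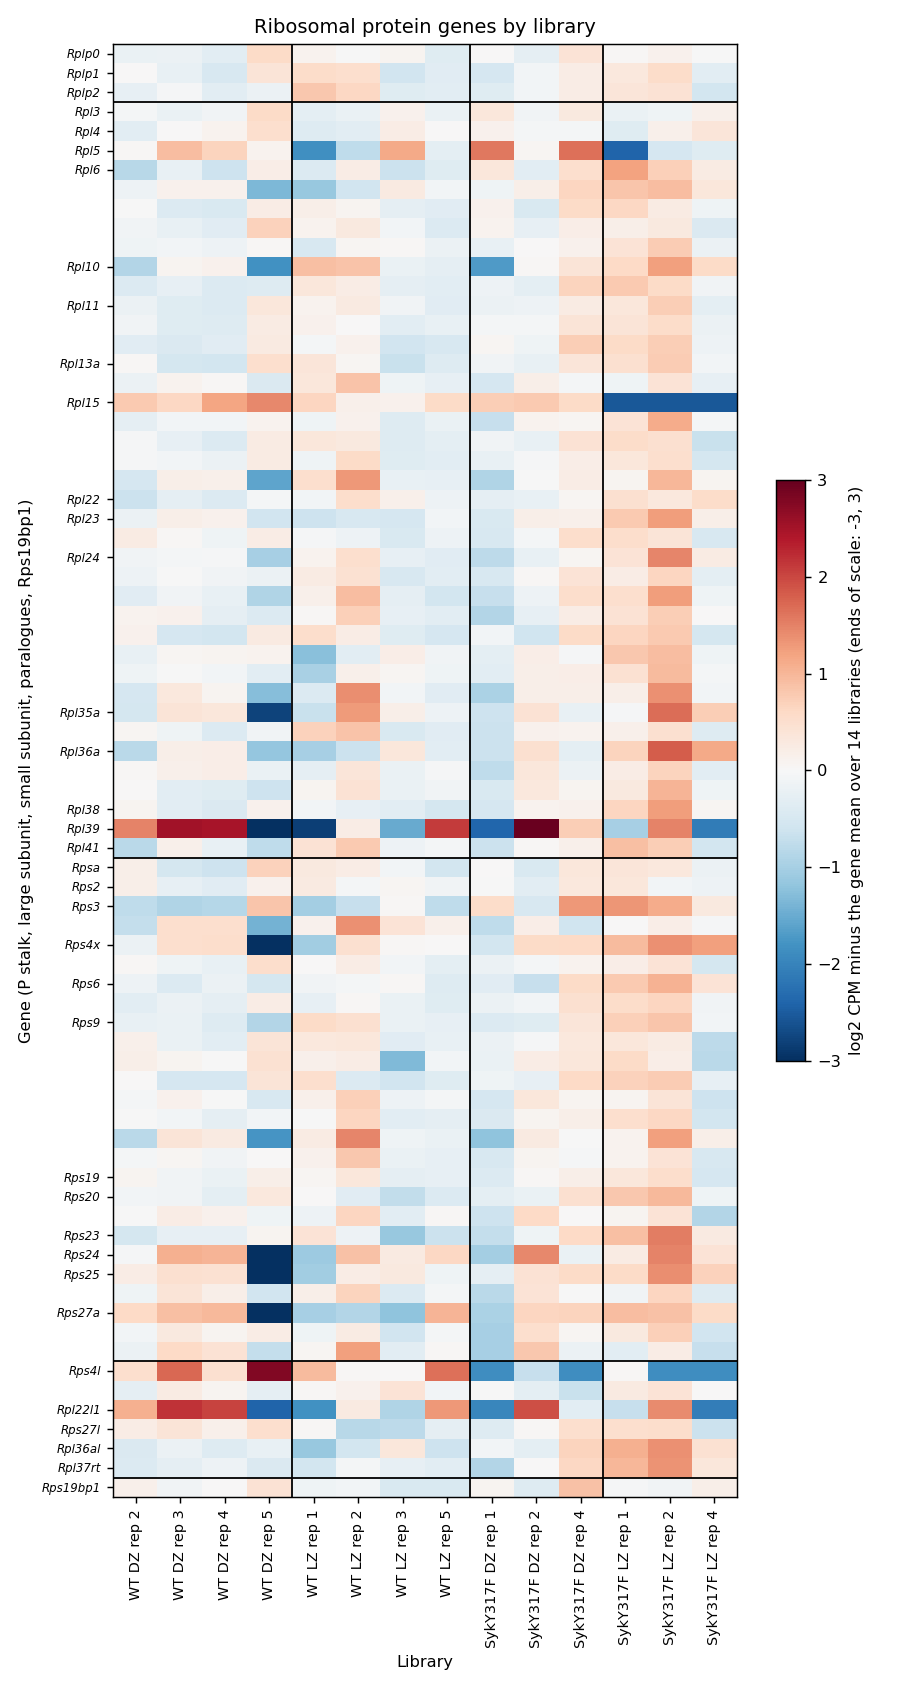
Log2 CPM of 75 of the 78 tested members in each of the 14 libraries, as the difference from the gene's mean over all libraries (colour, blue lower and red higher, with the scale ending at -3 and 3), ordered by role and group, with names given for the genes described in the text. Blue cells stand out for Rpl39, Rps24, Rps25, Rps4x, Rps27a and Rpl35a in WT DZ replicate 5 and for Rpl15 in SykY317F LZ, and SykY317F LZ replicate 2 is red for most members.

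Pairs of members had a higher correlation than pairs of other genes at or above the same minimum level. Over the 14 libraries the median Pearson correlation of log2 CPM between 2 members was 0.45 (70 members with a mean of at least 200 CPM), between 2 other genes 0.14 (721 genes), and between a member and another gene 0.00067. These are descriptions over libraries that share scaling and depth. Both sets share only the minimum level and were not matched in level above it, so the medians are not a matched comparison. The members nearest to the mean of the others were Rpl27a (r = 0.91), Rpl35 (0.88) and Rpl24 (0.88). The most negative values belonged to Rpl15 (-0.57), Rpl3 (-0.54), Rps4l (-0.41), Rpl4 (-0.39) and Rpl5 (-0.34), and Rplp0 (-0.069), Rps19bp1 (-0.040) and Rps2 (-0.037) were just below 0. Of 3274 non-member genes with a mean of at least 50 CPM, the most like the members' mean included Atp6v0b (r = 0.84), Eif1 (0.84), Fau (0.84) and Cox7c (0.83). Fau encodes a ribosomal protein fused to a ubiquitin-like protein and lies outside the naming rule. Among genes with a mean of at least 200 CPM the SD of log2 CPM had a median of 0.45 in members and 0.37 in the others.

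The fold changes were also set beside sequence features of the members. Between genotypes in LZ the median log2 fold change was 0.26 in the 20 tested members with a run of at least 8 pyrimidines at a start and 0.38 in the 39 with a shorter run. Between the SykY317F zones these medians were 0.20 and 0.36. Between the WT zones the order was the opposite, with 0.13 and -0.01. Across the 78 members Spearman's rho with transcript length was 0.04 between genotypes in LZ, and rho with transcript GC content was -0.35, beside 0.02 over 7724 tested genes with a transcript. Between the WT zones the members' rho with GC content was 0.29 (all genes, 0.38). Short transcripts of other genes had medians above 0 as well in the comparisons that hold SykY317F LZ. Among 171 non-members under 700 bases the median between genotypes in LZ was 0.19, with 109 above 0, beside 0.34 for the 23 members of that length. In the difference of zone effects these medians were 0.25 and 0.29, and between the SykY317F zones 0.09 and 0.31. Between the WT zones they were -0.20 and 0.04, and between genotypes in DZ -0.11 and -0.02. Members share libraries and are not independent of each other.

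Other genes of the ribosome pathway were read from the same fits. No gene of these lists passed in edgeR in any of the 5 comparisons. Of the ribosomal proteins outside the naming rule, Fau was at 2437 ± 789.6 CPM in SykY317F DZ and 5133 ± 2238 CPM in SykY317F LZ (SD, n = 3 and 3), a log2 fold change of 1.08 ± 0.40 (adjusted p = 0.357). The 23 other TOP mRNAs, mostly translation factors, had medians of 0.17 between the SykY317F zones and 0.19 between genotypes in LZ, with 14 and 15 of 23 above 0. Eef1a1, the factor that delivers tRNAs, had a log2 fold change of 0.81 ± 0.34 between the SykY317F zones (adjusted p = 0.413).

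The 20 regulators had medians below 0 in all 5 comparisons, as had all tested genes. The regulators' medians were -0.11 between the WT zones, -0.21 between the SykY317F zones, -0.13 between genotypes in DZ, -0.25 in LZ and -0.10 in the difference. Those of all tested genes were -0.02, -0.04, -0.04, -0.06 and -0.05 in the same order. The 27 tested of 30 assembly factors had medians of 0.06, -0.01, -0.06, -0.19 and -0.12 in the same order. Myc was at 24.3 ± 11.6 CPM in WT DZ and 47.8 ± 15.9 CPM in WT LZ (SD, n = 4 and 4), a log2 fold change of 0.98 ± 0.40 (adjusted p = 0.480). Gar1, a subunit of the small nucleolar complexes that modify rRNA, was at 141 ± 29.4 CPM in WT LZ and 42.0 ± 18.7 CPM in SykY317F LZ (n = 4 and 3), a log2 fold change of -1.74 ± 0.33 (adjusted p = 0.111). The 65 tested mitochondrial ribosomal protein genes had medians of -0.23 between the WT zones, -0.11 between the SykY317F zones, -0.16 between genotypes in DZ and -0.07 in LZ. Mitochondrial members above 0 numbered 18, 24, 16 and 30 of 65, and 0 passed the test in any comparison.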

How the data were processed

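RNA of sorted GC B cells was captured by its poly(A) tail and made into modified MARS-seq libraries, per the labels' protocols. Tools listed without role or order in the submitters' processing notes are STAR 2.4.2a, cutadapt, HTSeq, DESeq and DESeq2, with the build mm10. The authors deposited whole-number UMI counts and read counts per gene symbol, a normalised signal, regularised log2 values and log2 fold changes, and p-values with adjusted p-values. The deposited signal and regularised log2 values were not used.

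UMI counts were filtered with filterByExpr (7999 genes, 99.3% of UMIs), scaled by TMM and fitted with edgeR 4.0.16 (R 4.3.3, robust quasi-likelihood, 1 model of 4 groups). P-values were adjusted by Benjamini-Hochberg over all tested genes, threshold 0.05, and SE is the fold change over the root of F. Log2 CPM used a prior count of 2. Starts came from RefSeq tables (GRCm38.p6) and coordinates from a GRCm38 annotation, the assembly of mm10. Alternatives included DESeq2 1.42.0, other scalings and filters, read counts, a replicate block and leaving out libraries.

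Members and lists were chosen with earlier results of these data known. Named are fixed subunit examples, the 5 smallest p per direction and comparison, the extremes of level per subunit and the 5 most alike genes. Members with large swings and pathway genes with small p were chosen after their values were seen. The fit was tested on simulated counts, with 100 genes changed 2-fold and 100 changed 4-fold in each comparison. Of those changed 2-fold, 35 were called between the WT zones and 11 between the SykY317F zones. Between genotypes 21 were called in DZ and 18 in LZ, and 10 were called in the difference. Of those changed 4-fold, 94, 75, 90, 74 and 50 were called in the same order. In these simulations most 2-fold changes were thus not called. Results of some genes are not reported here.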

Additional observations from a re-analysis of the deposited data

Results flagged for a closer look

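In groups of 4 libraries, 88 sets of values (43 members and the share of UMIs in 2 groups) were searched for a library far from the other 3, and 9 were found. The cutoff is one that about 1 in 20 independent sets would pass by chance. These sets share the same libraries, and some members were listed for their values, so the 9 cannot be set against that rate. In WT DZ replicate 5, Rplp0 was at 8550 CPM, Rpl3 at 3520 CPM, Rpl13 at 4690 CPM and Rps3 at 1620 CPM, all above the other WT DZ libraries, and Rpl24 at 435 CPM was below them. Rpl10a was at 960 CPM in WT DZ replicate 3, against 849 to 864 CPM in the others. Rps3a1 at 7810 CPM and Rps29 at 12000 CPM were high in WT LZ replicate 2, the WT library with the highest share of members. Rps27a was at 1870 CPM in WT LZ replicate 5, against 393 to 499 CPM in the other WT LZ libraries.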

How the results depend on the processing

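The count of members passing the test was 0 in each comparison and stayed 0 under most settings. Between genotypes in LZ it was 7 with DESeq2's Wald test, 2 with read counts and 1 without WT LZ replicate 3 (range 0 to 1 over left-out libraries). Between the SykY317F zones it was 1 with read counts and 1 with scaling by library size only. The cause was not tested. Library-size scaling moved the median of all genes between the SykY317F zones from -0.04 to -0.19 and that of members from 0.35 to 0.21, so members stayed above it. Over left-out libraries, members' medians ran from -0.09 to 0.12 (WT zones), 0.12 to 0.57 (SykY317F zones), -0.07 to 0.22 (genotypes in DZ), 0.08 to 0.52 (in LZ) and -0.01 to 0.43 (difference). Leaving out the 2 libraries of fewest UMIs, SykY317F LZ replicates 2 and 4, leaves replicate 1 alone in that group. The medians were then 0.41 between the SykY317F zones and 0.34 between genotypes in LZ, with SykY317F LZ read from that single library. Without the 4 under 400000 UMIs it was -0.05 between genotypes in DZ. Signs turned, with no call involved, for Rpl10a in DZ with read counts (-0.075) and, over left-out libraries, for Rpl37 in DZ (-0.49 to 0.053, the latter without SykY317F DZ replicate 1), Rpl39 between the SykY317F zones (-3.12 to 0.41) and Rps29 in the difference (-0.87 to 0.052), both highest without SykY317F DZ replicate 2, Rpl22l1 between the SykY317F zones (-1.93 to 1.39, the latter without SykY317F DZ replicate 2), and Rps19bp1 between the SykY317F zones (-0.50 to 0.13, the latter without SykY317F DZ replicate 4).

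Same-numbered libraries did not deviate together throughout (correlations of deviations from -0.56 to 0.21), so the numbers were not taken as pairs. With a replicate block, 0 members passed in any comparison (all genes, 0.175% between the WT zones, 0.0125% between the SykY317F zones and 0% in the others), and the medians were 0.31 between the SykY317F zones and 0.24 between genotypes in LZ. Depth limits SykY317F LZ most, where 3 UMIs correspond to 8.95 to 18.8 CPM.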
